A study of Homo sapiens with 6 samples.

Results

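The 10 genes described here flank METTL1, the gene that both guides target, on the long arm of chromosome 12. They were chosen by name: METTL21B, AGAP2, MARCH9, CYP27B1, PIP4K2C, CTDSP2, DTX3, TSPAN31, CDK4 and OS9. All 10 had a row among the 18806 gene symbols of the deposited table, and all 10 passed the filter, a mean over the libraries of 1 TPM or more, as did 10911 genes in all. They were read as a check for local effects of a Cas9 cut at METTL1. Stranded poly(A) RNA sequencing was done on 6 libraries of Mono-mac-6, an acute myeloid leukaemia line of monocytic type with the MLL-AF9 fusion gene. The groups were sgMETTL1.3 and sgMETTL1.6, which received guides against METTL1, and sgNS, which received a control guide, with 2 libraries each. All 3 groups were made from 1 single-cell clone that expresses Cas9, so what is particular to that clone is shared by every library. Guides were delivered by lentivirus, selection was by hygromycin B (200 µg/ml) together with blasticidin (10 µg/ml), and harvest was about 8 to 10 days after transduction. The names of all 6 libraries in the table also carry the letters EV, a mark they share that the labels do not explain.

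Cas9 cuts both strands of DNA at the site its guide matches, and repair usually leaves small insertions or deletions. Larger deletions and loss of the chromosome beyond the cut are also known, and these can reach genes next to the target. The stretch around METTL1 is gene-dense, and several of its genes overlap each other or lie head to head. It is known in oncology for CDK4, which is amplified together with its neighbours in several solid tumours.

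TPM is the estimated share of all transcripts, corrected for transcript length with 1 fixed total for every library, so levels of different genes can be set side by side. It keeps no read depth: the depth of the libraries is unknown, and counting intervals are not given. Replicates of a group differed by a median of 2.44% (sgMETTL1.3), 3.15% (sgMETTL1.6) and 2.42% (sgNS) over the 1742 genes whose mean reached 100 TPM. Nothing in the labels ties the replicates to separate cultures, and the spread that the p-values measure may be technical. Of 12 monocytic leukaemia markers, 9 had a mean of at least 1 TPM, and CD14, CSF1R and CD4 stayed under 1 TPM in every library. Their summed level was 11504.8 to 11584.0 TPM in sgMETTL1.3 libraries, 9931.1 to 10311.3 TPM in sgMETTL1.6 libraries and 11650.3 to 12220.4 TPM in sgNS libraries. Nearly all of that sum was LYZ, lysozyme, with 9205.5 to 11419.3 TPM over the 6 libraries. Over both guides 6 of the 9 tested markers fell and 1, SPI1, rose (0.20), with a median log2 change of -0.32. SPI1 passed with sgMETTL1.3 (0.32) but not with sgMETTL1.6 (0.09, limma adjusted p = 0.0935). LYZ passed with sgMETTL1.6 (-0.24) but not with sgMETTL1.3 (-0.04, limma adjusted p = 0.18). FCGR1A (-0.84), ITGAM (-0.64), MPO (-0.47), CD68 (-0.37), HOXA9 (-0.32) and LYZ (-0.14) were lower (limma, adjusted p under 0.05), so monocytic markers moved in the same libraries as the neighbours. Most genes did so: among all genes tested, 59.4% passed this test over both guides, 26.8% lower and 32.6% higher. Of 10 markers of other cell types, 9 were under 1 TPM in every library and CD3E, MS4A1, HBB and KLRD1 were listed at 0. The remaining one, PECAM1, which monocytes also make, gave nearly all of that list's sum of 69.4 to 100.9 TPM. The part of these marker levels in the results was not tested.

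Promoter sequences were available for 7 of the 10 genes, from RefSeq on GRCh38.p14, each running from 250 bases before to 50 bases after the annotated start. Shown here are CTDSP2, the neighbour with the deepest fall, CDK4 and OS9, the most abundant ones, which also fell, and MARCH9, which rose beside CDK4. Capitals mark matches, on either strand, to the E-box CACGTG, bound by factors such as MYC, and to CCAAT, the site of NF-Y.
CTDSP2 (chr12:57846680-57846979, minus strand): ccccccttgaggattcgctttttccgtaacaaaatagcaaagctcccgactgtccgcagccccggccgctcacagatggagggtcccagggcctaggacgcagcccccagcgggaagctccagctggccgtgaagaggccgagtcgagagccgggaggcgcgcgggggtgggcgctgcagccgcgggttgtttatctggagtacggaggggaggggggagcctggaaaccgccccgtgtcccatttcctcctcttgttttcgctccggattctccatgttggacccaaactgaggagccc
CDK4 (chr12:57752261-57752560, minus strand): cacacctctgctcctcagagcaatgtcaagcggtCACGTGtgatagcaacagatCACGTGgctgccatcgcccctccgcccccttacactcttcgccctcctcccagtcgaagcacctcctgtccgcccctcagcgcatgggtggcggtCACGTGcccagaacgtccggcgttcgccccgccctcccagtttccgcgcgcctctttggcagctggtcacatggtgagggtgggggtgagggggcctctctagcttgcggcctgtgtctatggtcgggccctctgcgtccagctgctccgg
OS9 (chr12:57693882-57694181, plus strand): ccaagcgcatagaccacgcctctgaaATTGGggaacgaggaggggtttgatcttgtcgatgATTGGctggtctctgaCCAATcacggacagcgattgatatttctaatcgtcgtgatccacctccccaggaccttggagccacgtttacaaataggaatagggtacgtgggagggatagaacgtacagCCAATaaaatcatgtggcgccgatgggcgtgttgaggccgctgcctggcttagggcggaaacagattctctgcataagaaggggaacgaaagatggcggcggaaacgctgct
MARCH9 (chr12:57754853-57755152, plus strand): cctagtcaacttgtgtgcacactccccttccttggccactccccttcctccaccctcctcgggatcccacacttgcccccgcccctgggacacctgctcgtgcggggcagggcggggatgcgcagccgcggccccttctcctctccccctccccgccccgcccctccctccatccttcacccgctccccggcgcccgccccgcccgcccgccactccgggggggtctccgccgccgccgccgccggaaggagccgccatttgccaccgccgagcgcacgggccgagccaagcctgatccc
The CDK4 promoter held 3 E-boxes, a motif found in 7.26% of 35116 promoters of this length. The OS9 promoter held 4 CCAAT matches, and so did that of TSPAN31. CCAAT occurs in 34.6% of all promoters. The promoter of PIP4K2C, which rose, held 1 E-box and 1 CCAAT match. The CTDSP2 and MARCH9 windows held neither motif, nor did those of AGAP2. Searched on both strands, the core TGATGNAA of the ATF4 response element, which 3.62% of promoters hold, and the TATA box TATAAA, which 11.5% hold, had no match in any of the 8 promoters of these 7 genes. A match of letters is a description and not a measured binding site.

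METTL1 itself was read first. It lies on the minus strand of chromosome 12, from 57768471 to 57772793 (GRCh38, GENCODE 29, as for every gene position below). METTL1 held 18.3 and 16.6 TPM in sgMETTL1.3 libraries, 11.2 and 11.7 TPM in sgMETTL1.6 libraries, and 15.4 and 13.9 TPM in sgNS libraries. The sgMETTL1.3 libraries were thus above both controls and the sgMETTL1.6 libraries below them. The log2 change was 0.24 ± 0.071 in the libraries labelled sgMETTL1.3 (SE, limma adjusted p = 0.0111) and -0.33 ± 0.071 in the pair labelled sgMETTL1.6 (adjusted p = 0.00167). The rise lost its call without sgNS replicate 2 or without sgMETTL1.3 replicate 1. Over both guides the change was -0.05 (adjusted p = 0.53), and it was 0.02 when sgNS replicate 1 was left out. An exact two-sided permutation test over the libraries gave p = 0.933, but its 15 splits allow no p under 0.133 and it pools guides with opposite changes, so nothing is read from it. Small insertions and deletions are not read by gene-level TPM, so the editing and the protein remain unchecked by these values, and the direction in the libraries labelled sgMETTL1.3 was opposite to a loss of mRNA. Guide sequences and cut sites within METTL1 were not given in the sources used here.

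**Figure D1:**
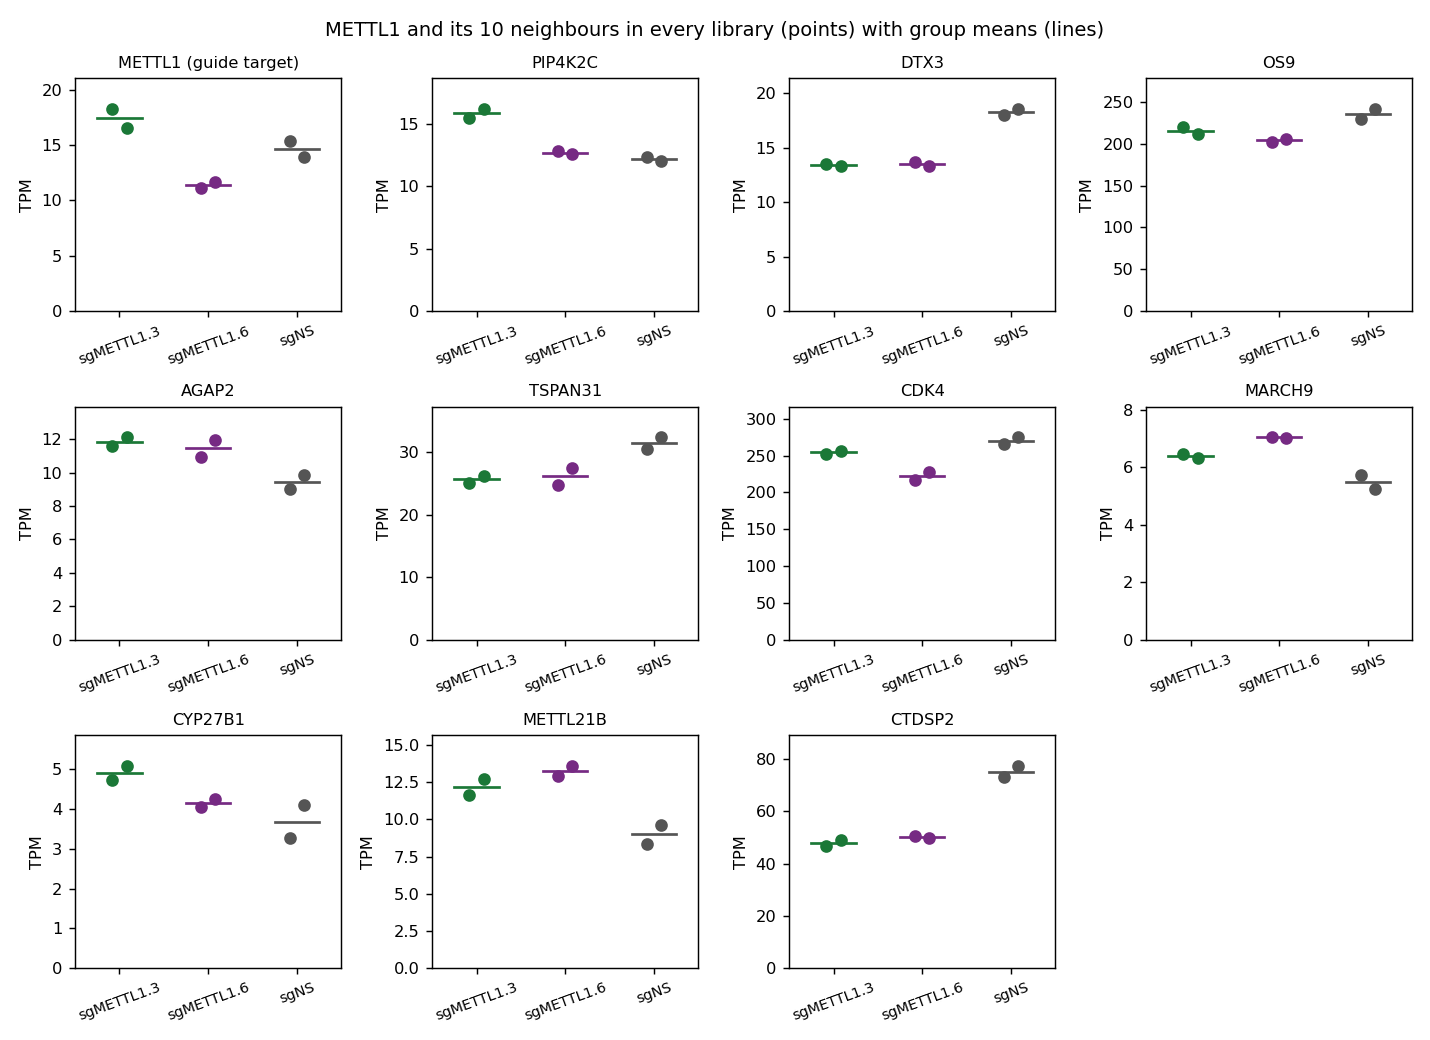
Level of METTL1 and of its 10 neighbours in TPM (vertical axes, from 0) in each of the 6 libraries, grouped as sgMETTL1.3, sgMETTL1.6 and sgNS, with points for libraries and lines for group means. Neighbours are in map order. The sgNS points lie above all guide points for CTDSP2, DTX3, TSPAN31, CDK4 and OS9 and below them for METTL21B, AGAP2, MARCH9 and PIP4K2C.

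The neighbours did not move as a block. Over both guides against sgNS, 5 of the 10 rose (METTL21B, AGAP2, MARCH9, CYP27B1 and PIP4K2C) and 5 fell (CTDSP2, DTX3, TSPAN31, CDK4 and OS9). Across all 10911 genes tested, 59.4% passed the same test (limma, adjusted p under 0.05), 32.6% higher and 26.8% lower. A call is thus common in this comparison, and whether the share among the neighbours differs from that background was not tested. In bulk RNA, fewer cells with a transcript and less of it per cell cannot be told apart. The changes were small: the median of the 10 log2 changes was 0.02, against 0.02 over all genes tested, and the median size regardless of sign was 0.26, against 0.16 over all genes tested. Only CTDSP2 reached a log2 change of 0.5 in either direction over both guides. In 9 of the 10 genes the 4 guide libraries did not overlap the 2 sgNS libraries, 4 above and 5 below. This held for 60.2% of all genes tested, 32.9% above and 27.3% below. CYP27B1 was the exception.

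With sgMETTL1.3 alone 4 neighbours rose and 4 fell. Of all genes tested 58.5% passed, 34.3% higher and 24.2% lower. All 10 were free of overlap with sgNS, 5 above and 5 below, against 79.9% of all genes tested, with 46.2% above and 33.7% below. With sgMETTL1.6 alone 3 rose and 5 fell, against 51.0% of all genes tested that passed, 25.7% higher and 25.3% lower. Here 9 were free of overlap, 4 above and 5 below, against 74.8% of all genes tested, with 37.8% above. Both comparisons use the same sgNS libraries, so they are not independent of each other. In all 10 genes the sign of the log2 change was the same with either guide, which the shared sgNS libraries favour. How many of all genes tested did the same was not counted.

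**Figure D2:**
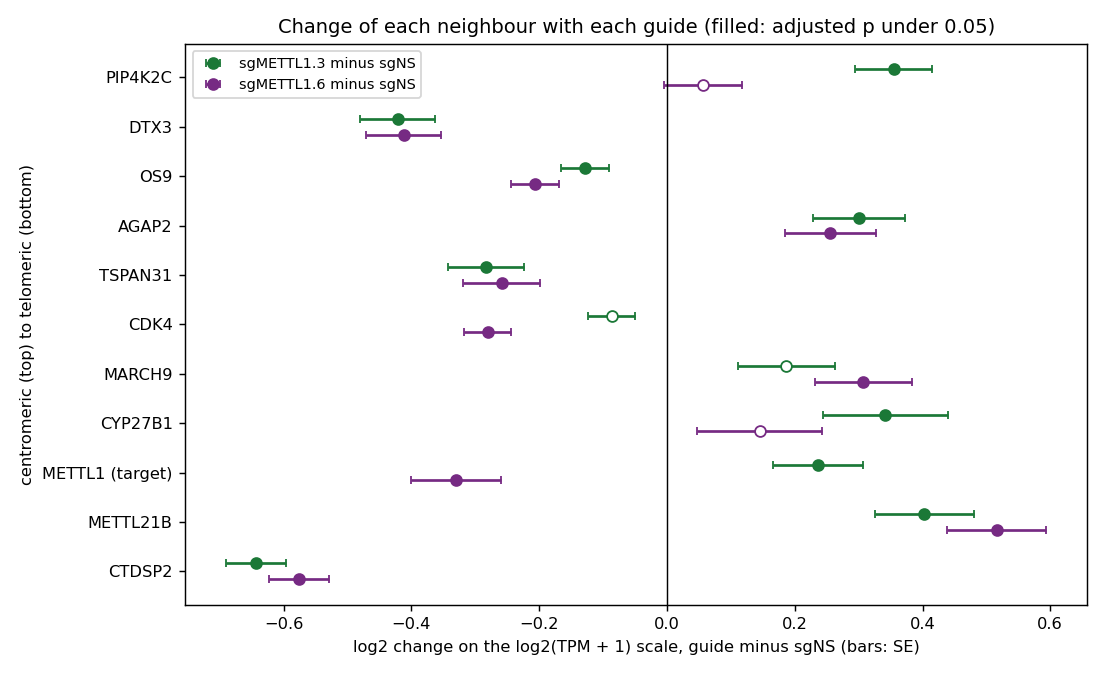
Log2 change on the log2(TPM + 1) scale (horizontal axis) of METTL1 and its neighbours with sgMETTL1.3 and with sgMETTL1.6, each minus sgNS, in map order from the centromeric side at the top, with bars for the SE. Filled points passed the test. METTL1 is the one gene whose points lie on opposite sides of 0.

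The 5 neighbours that fell stood on both sides of METTL1. CTDSP2 encodes a small phosphatase that acts on the C-terminal domain of RNA polymerase II and hosts a microRNA gene of the miR-26 family in an intron. It lies 47.1 kb telomeric to METTL1, on the minus strand of chromosome 12 from 57819927 to 57846739. CTDSP2 held 46.7 and 49.0 TPM in sgMETTL1.3 libraries, 50.7 and 49.7 TPM in sgMETTL1.6 libraries, and 73.1 and 77.6 TPM in sgNS libraries. The 4 guide libraries were close together and all well below both controls. Its log2 change over both guides was -0.61 ± 0.041 (SE, adjusted p = 5.3e-08), with -0.64 for sgMETTL1.3 and -0.58 for sgMETTL1.6. The 2 guides differed by a log2 of 0.07 (95% interval -0.03 to 0.17, adjusted p = 0.314).

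DTX3, a ubiquitin ligase of the Deltex family, whose founding member acts in Notch signalling, lies 158.7 kb centromeric to METTL1 (plus strand, 57604622 to 57609804). DTX3 held 13.5 and 13.3 TPM in sgMETTL1.3 libraries, 13.7 and 13.4 TPM in sgMETTL1.6 libraries, and 18.0 and 18.6 TPM in sgNS libraries. Guide and control libraries were separate, and the guide groups differed less from each other than either did from sgNS. DTX3 had a log2 change of -0.42 ± 0.051 over both guides (SE, adjusted p = 1.3e-05), and -0.42 and -0.41 with sgMETTL1.3 and sgMETTL1.6.

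CDK4, the kinase that pairs with D-type cyclins to phosphorylate RB in G1, was the most abundant neighbour. It lies 12.5 kb centromeric to METTL1 (minus strand, 57747727 to 57756013). CDK4 held 252 and 257 TPM in sgMETTL1.3 libraries, 216 and 228 TPM in sgMETTL1.6 libraries, and 265 and 275 TPM in sgNS libraries. All guide libraries were below both controls, with sgMETTL1.6 the lowest. The log2 change was -0.18 ± 0.032 over both guides (SE, adjusted p = 0.00027). With sgMETTL1.6 it was -0.28 ± 0.037 (adjusted p = 3.7e-05). With sgMETTL1.3 it was -0.09 ± 0.037 and did not pass (adjusted p = 0.0596). The change was -0.13 under median-ratio scaling (adjusted p = 0.00892) and -0.13 with ribosomal protein genes left out of the scaling (0.00736), over 1.5 times as large, and passed under both. At about its first size it also passed under quantile normalization (-0.09, 0.0462), with the replicate block (0.011), without either sgMETTL1.6 library (0.0388 and 0.0389) and with only the 2 groups compared (0.0378). The guides differed by a log2 of -0.19 ± 0.037 (sgMETTL1.6 minus sgMETTL1.3, adjusted p = 0.00322).

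TSPAN31, a tetraspanin, is the partner that overlaps CDK4 tail to tail (plus strand, 57738013 to 57750211). TSPAN31 held 25.1 and 26.2 TPM in sgMETTL1.3 libraries, 24.8 and 27.5 TPM in sgMETTL1.6 libraries, and 30.5 and 32.4 TPM in sgNS libraries. The guide groups interleaved, and both were below the controls. Its log2 change was -0.27 ± 0.052 over both guides (SE, adjusted p = 0.00059). TSPAN31 and CDK4 share 1369 exonic bases on opposite strands, which is 25.4% of the annotated exon bases of TSPAN31 and 43.2% of those of CDK4. The kit keeps strand, but whether the TPM estimate used strand was not given in the sources used here. Whether reads of CDK4 were assigned to TSPAN31 was not tested.

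OS9, the endoplasmic reticulum lectin that hands misfolded glycoproteins to degradation, lies 46.9 kb centromeric to METTL1 (plus strand, 57693955 to 57721557). OS9 held 219.5 and 211 TPM in sgMETTL1.3 libraries, 202 and 206 TPM in sgMETTL1.6 libraries, and 229.5 and 242 TPM in sgNS libraries. The guide libraries were all below the controls, by a margin smaller than the distance between the controls themselves. OS9 had a log2 change of -0.17 ± 0.032 over both guides (SE, adjusted p = 0.00061), -0.13 with sgMETTL1.3 (adjusted p = 0.0096) and -0.21 with sgMETTL1.6 (adjusted p = 0.0005). The call with sgMETTL1.3 was lost without sgNS replicate 2 (adjusted p = 0.119), without sgMETTL1.3 replicate 2 (0.092), without the variance trend (0.0567) and with no filter on low values (0.0855).

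Of the 5 neighbours that rose, METTL21B had the highest log2 change. The gene is named EEF1AKMT3 in the annotation and encodes a lysine methyltransferase that acts on the translation elongation factor eEF1A. It starts head to head with METTL1 on the plus strand and its annotated span, 57771492 to 57782541, overlaps that of METTL1. METTL21B held 11.6 and 12.7 TPM in sgMETTL1.3 libraries, 12.9 and 13.6 TPM in sgMETTL1.6 libraries, and 8.32 and 9.65 TPM in sgNS libraries. All guide libraries were above both controls. The log2 change was 0.46 ± 0.067 over both guides (SE, adjusted p = 6.5e-05), 0.40 with sgMETTL1.3 and 0.52 with sgMETTL1.6. The guides differed by 0.11 (95% interval -0.05 to 0.28, adjusted p = 0.3), while METTL1, its head-to-head partner, differed between them by -0.57 (95% interval -0.72 to -0.42, adjusted p = 0.00018). METTL1 and METTL21B share 506 exonic bases on opposite strands, which is 19.3% of the exon bases of METTL1. How reads from these bases were assigned was not tested.

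CYP27B1, the mitochondrial hydroxylase that makes the active form of vitamin D, lies at the other end of METTL1 on the same minus strand (57762334 to 57768986). CYP27B1 held 4.72 and 5.09 TPM in sgMETTL1.3 libraries, 4.06 and 4.24 TPM in sgMETTL1.6 libraries, and 3.26 and 4.09 TPM in sgNS libraries. The higher control reached into the sgMETTL1.6 range, and sgMETTL1.3 stood above both controls. The log2 change was 0.24 ± 0.085 over both guides (SE, adjusted p = 0.0251), 0.34 with sgMETTL1.3 (adjusted p = 0.00906) and 0.15 with sgMETTL1.6 (adjusted p = 0.238). The rise over both guides rested on single libraries: it was 0.12 without sgNS replicate 1 (adjusted p = 0.367), 0.22 without sgMETTL1.3 replicate 2 (0.0631) and 0.37 without sgNS replicate 2 (0.00833). It did not pass with no filter on low values (0.162), and it was 0.14 with a pseudocount of 5. With sgMETTL1.3, the value was 0.21 without sgNS replicate 1 (0.125), 0.30 without sgMETTL1.3 replicate 2 (0.0626) and 0.19 with a pseudocount of 5, and no filter on low values gave an adjusted p of 0.109. CYP27B1 and METTL1 share 107 exonic bases on the same strand, 3.11% and 4.08% of their exon bases.

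MARCH9, a membrane ubiquitin ligase that lowers surface proteins such as MHC class I and ICAM1, lies 8.1 kb centromeric to METTL1 (plus strand, 57755098 to 57760407). MARCH9 held 6.47 and 6.33 TPM in sgMETTL1.3 libraries, 7.05 and 7.04 TPM in sgMETTL1.6 libraries, and 5.75 and 5.26 TPM in sgNS libraries. The order was sgMETTL1.6 above sgMETTL1.3 above sgNS with no overlap. MARCH9 had a log2 change of 0.25 ± 0.066 over both guides (SE, adjusted p = 0.00579), and did not pass without sgNS replicate 2 (0.19, adjusted p = 0.0818). It was 0.31 with sgMETTL1.6 (adjusted p = 0.00456) and 0.19 with sgMETTL1.3 (adjusted p = 0.0502). The last value passed with a pseudocount of 5 (0.0464), a filter at 5 TPM (0.0479), quantile normalization (0.0313), no variance trend (0.0183) and the replicate block (0.0404). With the pseudocount of 5 the log2 change was 0.16 over both guides, 0.12 with sgMETTL1.3 and 0.20 with sgMETTL1.6. The start of MARCH9 lies within the annotated span of CDK4 on the other strand, with 0 shared exonic bases.

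AGAP2, a GTPase-activating protein for ARF that also has a GTPase-like domain of its own, lies 26.3 kb centromeric to METTL1 (minus strand, 57723761 to 57742157). AGAP2 held 11.6 and 12.1 TPM in sgMETTL1.3 libraries, 10.95 and 11.98 TPM in sgMETTL1.6 libraries, and 9.03 and 9.85 TPM in sgNS libraries. The guide groups overlapped each other and both were above the controls. AGAP2 had a log2 change of 0.28 ± 0.062 over both guides (SE, adjusted p = 0.00175), 0.30 with sgMETTL1.3 and 0.26 with sgMETTL1.6 (adjusted p = 0.00282 and adjusted p = 0.00942). The call with sgMETTL1.6 was lost without sgNS replicate 1 (0.0901), without sgMETTL1.6 replicate 2 (0.0746) and with no filter (0.0885). AGAP2 shares 189 exonic bases with TSPAN31 on the other strand.

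PIP4K2C, a kinase of phosphatidylinositol phosphates, is the neighbour farthest from METTL1, 165.1 kb centromeric to it (plus strand, 57591174 to 57603418). PIP4K2C held 15.5 and 16.2 TPM in sgMETTL1.3 libraries, 12.9 and 12.6 TPM in sgMETTL1.6 libraries, and 12.3 and 12.1 TPM in sgNS libraries. The sgMETTL1.3 libraries stood well above the controls, and the sgMETTL1.6 libraries above them by a small margin. PIP4K2C had a log2 change of 0.21 ± 0.053 over both guides (SE, adjusted p = 0.00442), with 0.35 ± 0.061 for sgMETTL1.3 (adjusted p = 0.00025) and 0.06 ± 0.061 for sgMETTL1.6 (adjusted p = 0.462). The guides differed by a log2 of -0.30 ± 0.061 (sgMETTL1.6 minus sgMETTL1.3, adjusted p = 0.00492).

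PIP4K2C and CDK4 were the 2 neighbours that passed the test between the guides, both lower with sgMETTL1.6. Of all genes tested, 23.0% passed it, 15.8% lower and 7.23% higher. That split turned with scaling: 31.4% of the called genes were higher with sgMETTL1.6 here, against 57.7% under median-ratio scaling and 54.8% under quantile normalization. Leaving out sgMETTL1.3 replicate 2 cut the 2510 calls to 1215. PIP4K2C and CDK4 stayed lower and called under these scalings, with -0.26 and -0.15 under median-ratio scaling. Between the guide groups 7 neighbours were free of overlap, 3 higher with sgMETTL1.6 and 4 lower, against 62.5% of all genes tested, with 19.5% higher and 43.0% lower. For the other 8 neighbours the test did not pass, which does not show that the guides act alike: the widest 95% interval was that of CYP27B1, from -0.41 to 0.02.

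By mean TPM in the sgNS libraries, the order of the neighbours per transcript length was CDK4 (270.1 ± 7.0), OS9 (236 ± 8.7), CTDSP2 (75.3 ± 3.2), TSPAN31 (31.5 ± 1.3), DTX3 (18.3 ± 0.40), PIP4K2C (12.2 ± 0.18), AGAP2 (9.44 ± 0.58), METTL21B (8.99 ± 0.94), MARCH9 (5.51 ± 0.35) and CYP27B1 (3.68 ± 0.59), each as SD with n = 2. Adjacent genes in this order did not overlap in their sgNS values, except AGAP2 and METTL21B, which did. In this order the 5 most abundant genes were the ones that fell and the 5 least abundant the ones that rose. The sgNS libraries are also the baseline of each change, so order and direction are not independent. By mean TPM in sgMETTL1.3 libraries PIP4K2C (15.9) stood above DTX3 (13.4), and the split was lost. In sgMETTL1.6 libraries it held, with DTX3 at 13.5, METTL21B at 13.25 and PIP4K2C at 12.7.

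The position of the changes was then set beside their direction. Within 1 Mb of METTL1 the table held 41 other genes, 29 of them tested, 25 centromeric and 4 telomeric. Of the 29, 5 rose and 20 fell over both guides, with a median log2 change of -0.21, against 32.6% higher, 26.8% lower and a median of 0.02 over all genes tested. The median of the 29 ranged from -0.26 to -0.14 over the alternatives. The 5 that rose were the 5 rising neighbours described above. None of the 19 other tested genes in this window rose over both guides, and 15 fell. ATP23, 133.2 kb telomeric to METTL1, split by guide. Its log2 change was -0.22 with sgMETTL1.3 (limma adjusted p = 0.00266) and 0.15 with sgMETTL1.6 (adjusted p = 0.0247).

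Median changes were lower farther from METTL1 than next to it. Distance was not separated from side, as only 4 of the 29 tested genes were telomeric. The 9 tested genes within 100 kb had a median log2 change of 0.07, with 4 higher and 4 lower. The 11 genes from 100 kb to 500 kb had a median of -0.42, with 1 higher and 9 lower, and the 9 genes from 500 kb to 1 Mb one of -0.31, with 0 higher and 7 lower. Each of these bins holds under 20 genes. Within 100 kb, the one tested gene not among the 10 was TSFM, the mitochondrial translation elongation factor Ts, 9.8 kb telomeric to METTL1. TSFM held 37.5 and 42.0 TPM in sgMETTL1.3 libraries, 38.8 and 41.8 TPM in sgMETTL1.6 libraries, and 40.2 and 36.1 TPM in sgNS libraries. These groups overlapped, and its log2 change was 0.07 (95% interval -0.06 to 0.19, adjusted p = 0.328). AVIL, also within 100 kb, stayed under 1 TPM in every library and was not tested.

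**Figure D3:**
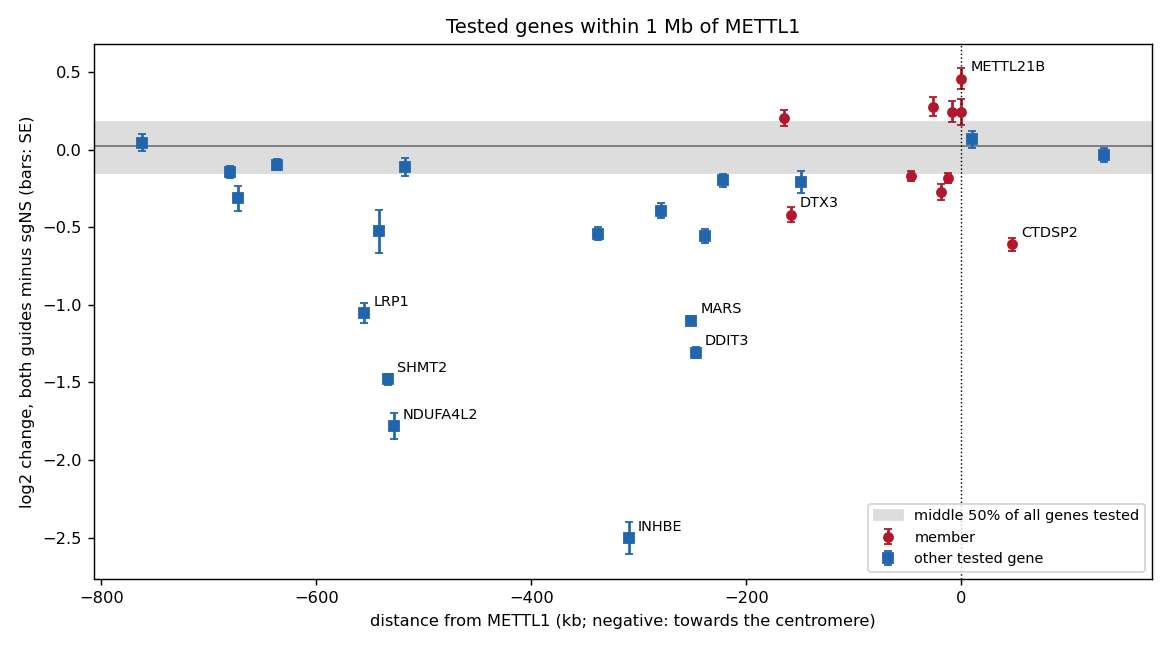
Log2 change over both guides minus sgNS (vertical axis, bars for the SE) of the 29 tested genes within 1 Mb of METTL1 against their distance from it in kb (horizontal axis, negative towards the centromere). The 10 neighbours lie between -0.61 and 0.46, all outside the grey band from -0.15 to 0.18 that holds the middle 50% of all genes tested, and the 6 lowest points, down to -2.50, lie 246.7 kb or more away.

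The lowest changes from 100 kb to 1 Mb were those of INHBE, a secreted inhibin subunit, and NDUFA4L2, a mitochondrial protein induced by hypoxia. INHBE, 309.2 kb away, held 0.53 and 0.30 TPM in sgMETTL1.3 libraries, 0.18 and 0.22 TPM in sgMETTL1.6 libraries, and 6.73 and 6.05 TPM in sgNS libraries (log2 change -2.50, adjusted p = 4.6e-10). NDUFA4L2 held 1.52 and 1.65 TPM in sgMETTL1.3 libraries, 1.19 and 1.10 TPM in sgMETTL1.6 libraries, and 7.05 and 7.14 TPM in sgNS libraries (log2 change -1.78, adjusted p = 1.3e-09). In both genes the guide libraries lay far below the controls, and INHBE passed the filter on low values through its control libraries alone. PIP4K2C was the one gene at that distance that rose over both guides. Chosen after their values were seen, DDIT3, the stress-induced transcription factor CHOP, MARS, the methionyl-tRNA synthetase, and SHMT2, a mitochondrial serine hydroxymethyltransferase, also fell, by log2 changes of -1.31, -1.10 and -1.48.

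Chromosome 12 was then divided at METTL1 and at the centromere, taken as 35 to 37 Mb. The aim was to see whether genes beyond METTL1 were lower as a group. The 271 tested genes telomeric to METTL1 had a median log2 change of 0.02, with 85 higher and 70 lower (57.2% called). The 10280 tested genes of all other chromosomes had a median of 0.03, with 3388 higher and 2725 lower (59.5% called). On the centromeric part of the long arm, 166 tested genes had a median of -0.06, with 39 higher and 72 lower (66.9% called). They include the 25 centromeric genes of the 1 Mb window, of which 4 rose and 19 fell. The 126 tested genes of the short arm had a median of -0.05, with 25 higher and 47 lower (57.1% called). The telomeric median lay between -0.01 and 0.04 over the alternatives.

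**Figure D4:**
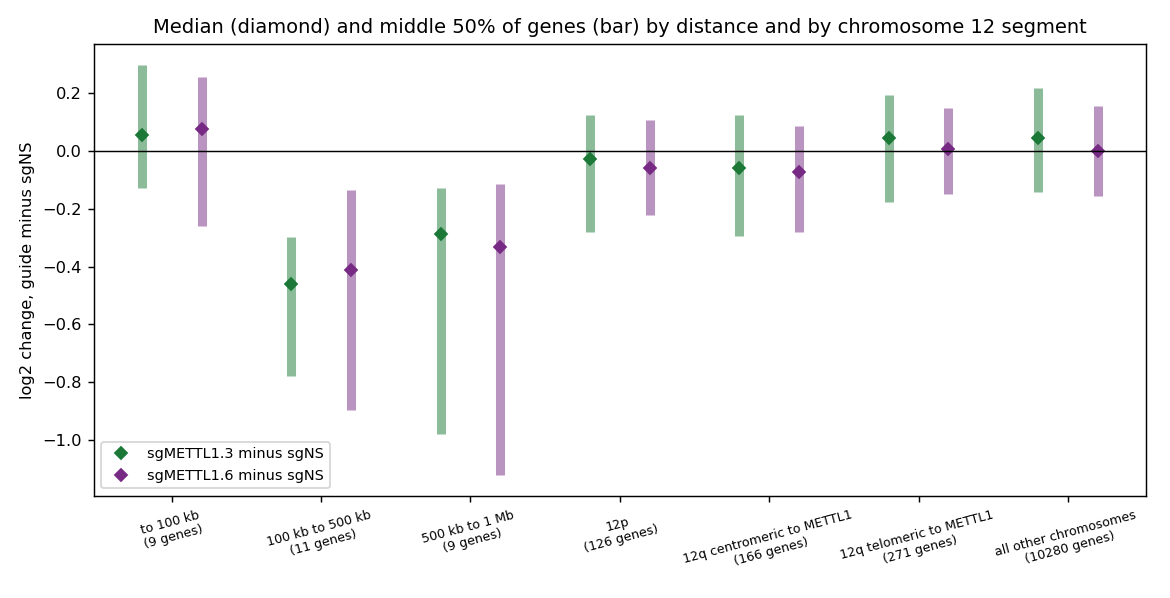
Median log2 change (diamonds) and the range of the middle 50% of genes (bars) for sgMETTL1.3 minus sgNS and sgMETTL1.6 minus sgNS (vertical axis), for tested genes grouped by distance from METTL1 and by segment of chromosome 12, with all other chromosomes at the right. The 100 kb to 500 kb group has medians of -0.46 and -0.41, and the long arm telomeric to METTL1 has 0.05 and 0.01.

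The neighbours were next set beside genes of their families or pathways. Each list includes the neighbour itself, so its counts are not independent of that neighbour. In the list of the CDK4 and cyclin D to RB axis, 18 of 20 genes were tested, 3 rose and 10 fell, with a median log2 change of -0.13, against 0.02 over all genes tested. That is 72.2% of the list called, against 59.4% of all genes tested, 32.6% higher and 26.8% lower, the shares that stand behind every list here. CDKN1A, the CDK inhibitor p21, fell to 14.6 and 15.6 TPM in sgMETTL1.3 libraries and 13.6 and 13.2 TPM in sgMETTL1.6 libraries, against 22.7 and 24.8 TPM in sgNS libraries (log2 change -0.70, adjusted p = 2.6e-07). E2F2 fell too (-0.45, adjusted p = 9.9e-06). CDKN2C, an inhibitor of CDK4, rose (0.25, adjusted p = 2.0e-05), as did CDK6 (0.16) and CCNE1 (0.22). CCND3, a D-type cyclin (-0.25), CDKN1B, the CDK inhibitor p27 (-0.25), and RB1, the substrate of CDK4 (-0.29), all fell over both guides. CDKN1B was -0.40 with sgMETTL1.3 and -0.10 with sgMETTL1.6, which did not pass (limma adjusted p = 0.1002). For CDKN1B the guides differed by 0.30 (adjusted p = 0.0009). RB1 did not pass with sgMETTL1.6 alone (-0.22, adjusted p = 0.0524).

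In the vitamin D list, 5 of 10 genes were tested, 4 rose and 1 fell, all 5 called against 59.4% of all genes tested. CYP2R1, the liver-type hydroxylase one step before CYP27B1, fell to 12.7 and 13.5 TPM in sgMETTL1.3 libraries and 12.1 and 11.7 TPM in sgMETTL1.6 libraries, against 30.6 and 29.3 TPM in sgNS libraries (log2 change -1.20, adjusted p = 6.9e-10). VDR, the vitamin D receptor, rose to 12.07 and 11.97 TPM in sgMETTL1.3 libraries and 8.79 and 9.51 TPM in sgMETTL1.6 libraries, against 7.93 and 7.18 TPM in sgNS libraries (0.43, adjusted p = 6.9e-05). The rise of CYP27A1, another vitamin D hydroxylase, came from 1 guide. CYP27A1 held 13.6 and 15.3 TPM in sgMETTL1.3 libraries, 7.44 and 7.18 TPM in sgMETTL1.6 libraries, and 8.58 and 8.27 TPM in sgNS libraries. Its log2 change was 0.71 with sgMETTL1.3 and -0.18 with sgMETTL1.6, which did not pass (adjusted p = 0.0521), and the guides differed by -0.89.

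For METTL21B, 12 of 13 genes in the list of its family and of eEF1A lysine methyltransferases were tested, 5 rose and 3 fell (66.7% called, against 59.4% of all genes tested). EEF1AKMT1 rose to 27.2 and 27.9 TPM in sgMETTL1.3 libraries and 23.9 and 26.0 TPM in sgMETTL1.6 libraries, against 19.0 and 16.9 TPM in sgNS libraries (log2 change 0.53, adjusted p = 4.0e-06). METTL13, another eEF1A methyltransferase, rose as well (0.35, adjusted p = 5.5e-06), while METTL10 (-0.29), VCPKMT (-0.26) and METTL18 (-0.18) fell. METTL13 was 0.48 with sgMETTL1.3 and 0.21 with sgMETTL1.6, a difference of -0.27 between the guides (adjusted p = 0.0013).

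The list of small C-terminal domain phosphatases and related genes had 7 of 8 genes tested, with 3 higher and 4 lower, all 7 called. The share over all genes tested was 59.4%. The list also holds REST, which is not a phosphatase and is counted among the 4 that fell (-0.16). CTDSP1, a close relative of CTDSP2, fell (-0.26, adjusted p = 0.00021), and CTDP1, the phosphatase that recycles RNA polymerase II, rose (0.35, adjusted p = 1.0e-05). In the list of OS9 and its partners in endoplasmic reticulum degradation, 15 of 16 were tested, 4 rose and 5 fell, and the 60.0% called is close to the 59.4% of all genes tested. HERPUD1 (-1.41, adjusted p = 1.2e-11) and EDEM1 (-0.55, adjusted p = 3.4e-08) fell, and VCP, the ATPase that extracts proteins from the membrane, rose (0.30, adjusted p = 2.1e-06).

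Among membrane MARCH ligases 8 of 11 were tested, with 2 higher and 2 lower (4 of 8 called, against 59.4% of all genes tested). MARCH6 (-0.29, adjusted p = 2.6e-05) and MARCH5 (-0.26, adjusted p = 0.00035) fell, while MARCH3 rose (0.39, adjusted p = 0.0031) as MARCH9 did. Among Deltex ligases and Notch receptors 6 of 9 were tested, with 2 higher and 1 lower (3 of 6 called). DTX3 was the one that fell, and NOTCH1 (0.23, adjusted p = 0.00077) and DTX2 (0.21, adjusted p = 0.00124) rose. NOTCH1 was 0.36 with sgMETTL1.3 and 0.10 with sgMETTL1.6, which did not pass (limma adjusted p = 0.126). For NOTCH1 the guides differed by -0.26 (adjusted p = 0.00532). In the phosphatidylinositol phosphate kinase list 6 of 8 were tested, with 3 higher and 2 lower (83.3% called). PIP5K1A fell (-0.20, adjusted p = 0.00014) and PIP5K1C rose (0.26, adjusted p = 0.00038).

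Among AGAP2 and related ARF GTPase-activating proteins 15 of 20 were tested, with 6 higher and 3 lower, and the 60.0% called is close to the 59.4% of all genes tested. ARAP2 fell to 0.16 and 0.18 TPM in sgMETTL1.3 libraries and 0.06 and 0.14 TPM in sgMETTL1.6 libraries, against 3.04 and 3.12 TPM in sgNS libraries, and passed the filter through the controls alone. ACAP1 fell by -0.56 on the log2 scale (adjusted p = 4.9e-05). Among tetraspanins 16 of 25 were tested, with 7 higher and 6 lower (81.2% called). CD37 (-0.37, adjusted p = 1.7e-05) and CD63, a protein of lysosomes and exosomes (-0.14, adjusted p = 0.00021), fell with TSPAN31.

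The genes nearest in pattern to the 2 neighbours with the largest changes were sought over the 6 libraries, as the smallest root mean square distance between centred log2(TPM + 1) values. For CTDSP2 they were RNF44 on chromosome 5 (distance 0.0291), ALS2CR12 on chromosome 2 (0.037) and MYO15B on chromosome 17 (0.0373). For METTL21B they were NME4 on chromosome 16 (0.0327), ZNF30 on chromosome 19 (0.0375) and MARCKSL1 on chromosome 1 (0.0376).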

How the data were processed

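The authors deposited 1 table of TPM values per gene symbol, made, per the submitters' processing notes, with RSEM 1.2.31 and GRCh38. Aligner and annotation were not given in the sources used here. RSEM assigns reads that fit several transcripts by a model, so overlapping genes can exchange signal, and TPM scaling lets a change in abundant genes shift all others. The 6 value columns were mapped to samples by name, with 0 left unmapped.

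Values were analysed as log2(TPM + 1) with limma 3.58.1 in R 4.3.3. Genes averaging 1 TPM or more were kept. All 3 groups entered 1 model whose prior variance followed mean expression (prior degrees of freedom 9.84, residual 3), and p-values were adjusted by Benjamini-Hochberg over all genes tested, with 0.05 as threshold. Fold changes on this scale understate the change of low genes. The fit was also run on simulated data with independent noise of the spread that the fit itself had estimated. That run cannot show whether the replicates here are independent. Positions were found for 18608 of 18806 symbols in GENCODE 29, older symbols included. The annotation may differ from the one the authors used.

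The neighbours and the gene lists were chosen with earlier results of these data known. Genes were named by rule: the neighbours, METTL1, tested genes within 100 kb, the extremes of the wider window and the 2 lowest adjusted p in each list. The other genes singled out in the report were chosen after their values were seen. Alternatives were other pseudocounts, filters, scalings and variance models, the replicate block, fits of 2 groups and leaving out each library.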

Additional observations from a re-analysis of the deposited data

Results flagged for a closer look

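METTL1 and 2 of its neighbours differed between the guides, by limma's contrast of sgMETTL1.6 minus sgMETTL1.3 adjusted over all genes. METTL1 had a log2 difference of -0.57 (adjusted p = 0.00018), with 11.2 and 11.7 TPM in sgMETTL1.6 libraries and 18.3 and 16.6 TPM in sgMETTL1.3 libraries. PIP4K2C had one of -0.30 (adjusted p = 0.00492) and CDK4 one of -0.19 (adjusted p = 0.00322). With no filter on low values none of the 3 passed, although the differences stayed the same size, and PIP4K2C then had an adjusted p of 0.0526 and CDK4 one of 0.099. Single libraries were not screened for outliers because each group has 2.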

How the results depend on the processing

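Over both guides, 8 of the 10 neighbours kept direction and call under all alternatives in which they were tested, and MARCH9 and CYP27B1 did not. CYP27B1 was not tested with a filter at 5 TPM. The number of genes called over both guides ranged from 4962 to 6976. With no filter on low values, the neighbours called with sgMETTL1.3 were 1 higher and 2 lower, those called between the guides 0, and METTL1 lost its calls with sgMETTL1.3 (0.24), with sgMETTL1.6 (-0.33) and between the guides (-0.57). Without sgNS replicate 1, METTL1 over both guides was 0.0219, and leaving out 1 library at a time gave -0.12 to 0.0219. With sgMETTL1.3 METTL1 ranged from 0.17 to 0.31 when 1 library was left out. Between the guides, 2510 genes were called, 367 with no filter, 1409 without the variance trend and 1215 to 2476 with 1 library left out. The share of them that was higher with sgMETTL1.6 was 31.4%, but 57.7% under median-ratio scaling, 54.8% under quantile normalization and 49.1% without ribosomal protein genes. Differences of AGAP2, DTX3 and TSPAN31 between the guides, none of which was called, changed sign: AGAP2 was 0.0144 under quantile normalization. Leaving out 1 library gave -0.1044 to 0.0148 for AGAP2, -0.0055 to 0.0243 for DTX3 and -0.0464 to 0.0956 for TSPAN31, which was also -0.0068 without sgMETTL1.3 replicate 1.

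The median over the 1 Mb window was -0.25 with a pseudocount of 0.1, -0.14 with no filter and -0.26 to -0.16 leaving out 1 library. Its centromeric part had -0.27, and -0.20 with a pseudocount of 5, -0.18 with no filter, -0.23 with a filter at 5 TPM, -0.20 without DDIT3, INHBE, MARS and SHMT2 (chosen after their low values were seen, so leaving them out can only raise the median), and -0.31 to -0.23 leaving out 1 library. The short arm had 0 with no filter, -0.0425 with a pseudocount of 5, -0.058 with a filter at 5 TPM, -0.0764 under median-ratio scaling, -0.0368 under quantile normalization, -0.0821 without ribosomal protein genes and -0.0711 to -0.0483 leaving out 1 library. The centromeric long arm had 0 with no filter, -0.0252 with a filter at 5 TPM, -0.0856 under median-ratio scaling, -0.0464 under quantile normalization and -0.092 without ribosomal protein genes. The telomeric long arm had 0 with no filter, -0.0023 under median-ratio scaling, 0.0444 under quantile normalization and -0.0078 without ribosomal protein genes. The cause of these shifts was not tested. The replicate number as a block gave 6976 calls over both guides. Same-numbered libraries deviated together with correlations of 0.15, -0.005 and 0.21 between groups, so the number was not treated as a pairing. TPM holds no depth, which leaves counting error of low genes such as CYP27B1 unknown. Where a group kept 1 library, it was assumed to vary like the others.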
